A study of Mus musculus with 12 samples.

Results

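Cytokines made by T helper cells, and a cytokine receptor of the TH17 lineage, were followed as 8 genes out of the 47359 in the deposited table. The genes are Il21, Il24, Il23r, Il2, Csf2, Ifng, Il22 and Il10, linked to the inflammatory (TH1-like and encephalitogenic) state of TH17 cells. They were chosen by name, with earlier results of these data known. The study transferred TH17 cells into RAG2-/- host mice and recovered them from the CNS at the peak of experimental autoimmune encephalomyelitis (EAE), a mouse model of multiple sclerosis. All transferred cells are labelled 2D2, a transgenic T cell receptor that recognises a myelin protein. The genotype was either WT or IL-17A/F-DKO, in which the genes of both cytokines IL-17A and IL-17F are inactivated. Cells of each genotype were sorted as CXCR6+ or SLAMF6+, surface proteins that mark an effector-like and a stem-like state of TH17 cells, with 1000 living cells per library. The 12 RNA sequencing libraries comprise 5 WT libraries of each subset and 1 DKO library of each subset, made from total RNA amplified by a modified SMART-Seq2 protocol. The labels do not say whether the 5 WT libraries of a subset came from separate animals, so p-values measure only the spread between these libraries, which may be technical. The labels give no age, sex or strain beyond these alleles, and RAG2-/- hosts lack endogenous T and B cells but keep NK cells, innate lymphoid cells and myeloid cells.

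TH17 cells are stabilised by IL-23, which signals through IL-23R and STAT3. IL-21, a cytokine of activated helper cells, acts back on TH17 cells through STAT3, whereas IL-2 signals through STAT5 and restrains TH17 differentiation while sustaining effector growth. GM-CSF, encoded by Csf2, and IFN-γ, encoded by Ifng, are the helper products most closely tied to CNS inflammation in EAE, and IL-22, IL-24 and IL-10 form a family of related cytokines of which IL-10 is anti-inflammatory.

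The targeted genes were at or near 0 counts in the DKO libraries, as were untargeted genes described below, such as Il24. These counts therefore cannot by themselves show the genotype. Il17a was at 0 counts in the DKO CXCR6+ library and at 3 counts in the DKO SLAMF6+ library, against means of 345 ± 104 and 339 ± 85.8 CPM, or counts scaled to library size (SD, n = 5), in WT CXCR6+ and WT SLAMF6+. Il17f had 1 count in each DKO library. RNA of the sorted proteins followed the subset labels only in part. Slamf6 averaged 3.3 CPM in WT CXCR6+ against 8.42 in WT SLAMF6+ (edgeR adjusted p = 0.0047). Cxcr6 averaged 26.3 against 16.1 CPM, which did not pass the test (adjusted p = 0.251). Both genes were higher in each DKO library than in any WT library. Cxcr6 stood at 382 (DKO CXCR6+) and 162 CPM (DKO SLAMF6+), and Slamf6 at 75.8 and 259 CPM. Whether a subset label means the same in both genotypes was not tested. The T cell receptor did not follow the 2D2 label in the DKO libraries. Trbv16, the variable segment of the 2D2 beta chain, held 99.61 to 99.81% of the counts of all such segments in WT libraries, but only 9.959% (DKO CXCR6+) and 6.514% (DKO SLAMF6+). Ddx3y, a gene of the Y chromosome, had 314 and 249 counts in the DKO libraries, which had no Xist count, and none in any WT library. Haemoglobin genes took 11.9% of the DKO SLAMF6+ counts, and the neutrophil marker list summed to 956 and 99.2 CPM in the DKO libraries against at most 3.84 CPM in WT. In DKO CXCR6+ S100a8 at 498 CPM and S100a9 at 426 CPM made up most of the sum, whereas Cxcr2 and Retnlg were at 0. In DKO SLAMF6+ Ly6g was at 0, so the markers did not all rise. Every DKO value below comes from these libraries, so receptor, sex, RNA of other cells and genotype cannot be told apart. No DKO value without them can be given. Library totals ran from 6818658 to 11635037 counts, and at that depth a zero in DKO allows up to 3 counts, or 0.347 and 0.434 CPM for CXCR6+ and SLAMF6+.

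In WT cells the 8 genes formed a steep order of abundance. Levels between genes were compared as CPM per kilobase of transcript. In WT CXCR6+ cells Il24 led at 187 ± 47.1 (SD, n = 5 libraries, here and for the other WT values), followed by Il21 at 71.8 ± 7.59, Il2 at 35.3 ± 19.7 and Il23r at 14.5 ± 0.456. Ifng at 7.75 ± 9.38, Csf2 at 4.64 ± 3.84, Il22 at 0.594 ± 0.861 and Il10 at 0.0694 ± 0.0709 CPM per kilobase came last. In WT CXCR6+ only Il24 was clear of its neighbour in this order, and each of the other neighbouring pairs had overlapping library values. In WT SLAMF6+ cells Il24 led again at 415 ± 58.7, followed by Il2 at 74.5 ± 64.5 and Il21 at 73.3 ± 6.04 CPM per kilobase, which overlapped. Il23r at 14.1 ± 1.64 and Ifng at 13.6 ± 16.5 CPM per kilobase overlapped as well. Csf2 at 2.62 ± 1.12 CPM per kilobase was clear of Il10 at 0.417 ± 0.596, which overlapped Il22 at 0.31 ± 0.355. Il24 thus ranked above 97.7% and 98.4% of the tested genes with a known length in the CXCR6+ and SLAMF6+ subsets, whereas Csf2 ranked above 63.9% and 56.1%. In bulk samples such as these, fewer producing cells and less RNA per cell cannot be told apart.

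**Figure D1:**
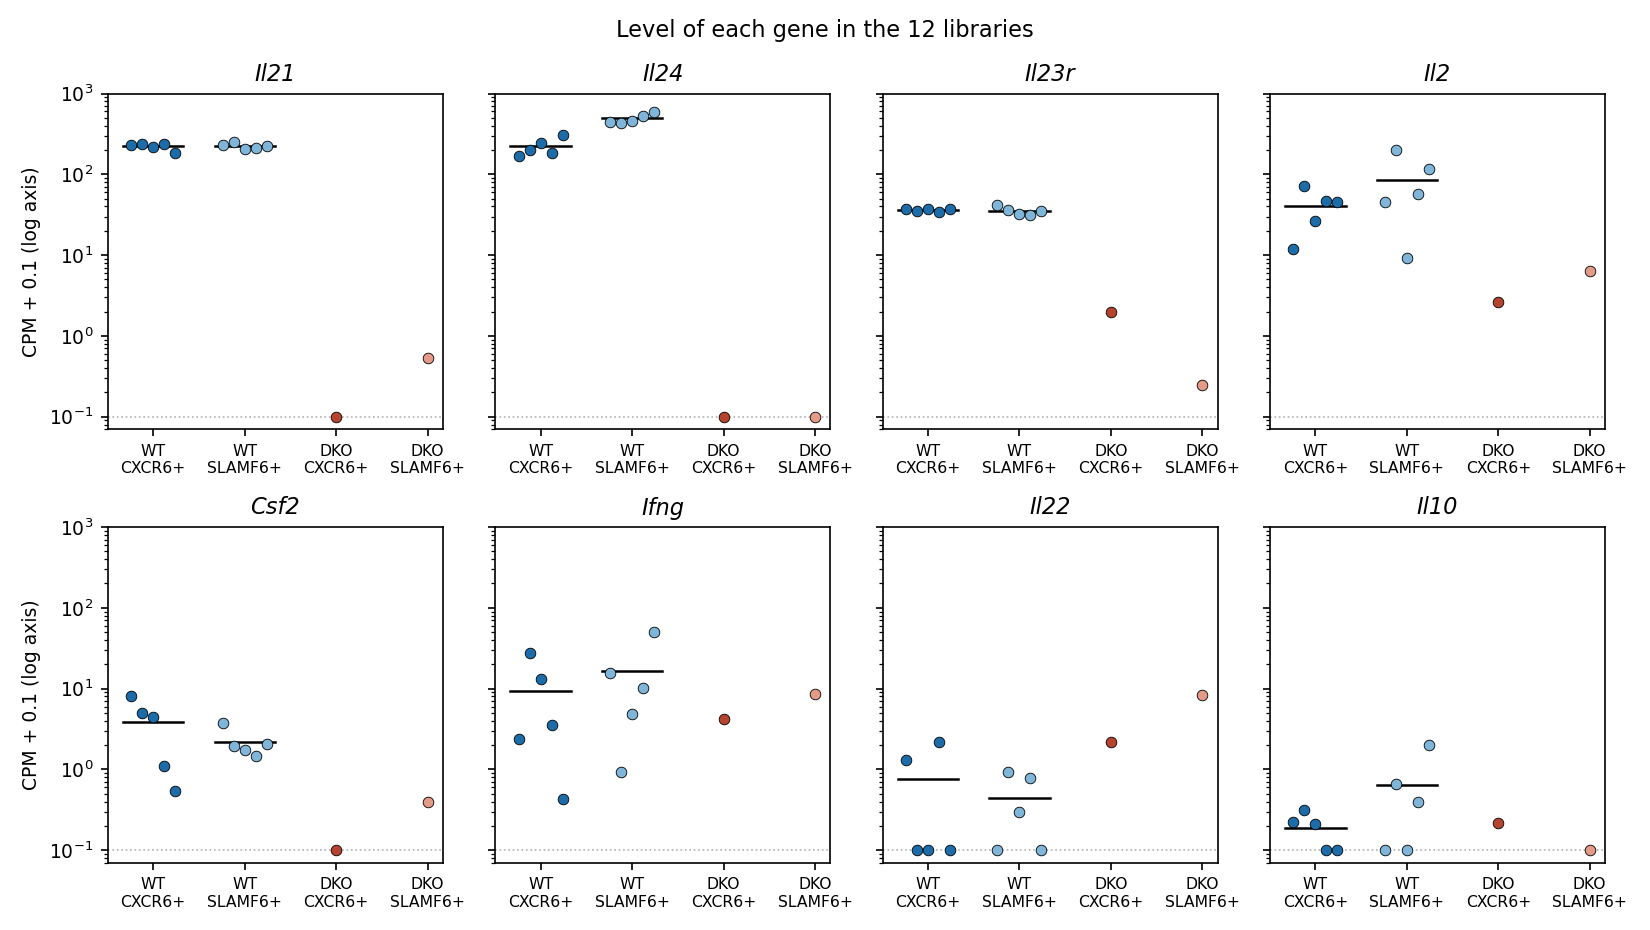
Level of each of the 8 genes in CPM plus 0.1 on a log axis, with 1 point per library, bars at the mean of the 5 WT libraries, and the dotted line marking 0 counts. Il21, Il24 and Il23r lie in tight WT groups with the DKO points far below them, and Ifng, Il22 and Il10 spread over a wide range in WT that holds the DKO CXCR6+ point.

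The comparison of WT CXCR6+ with WT SLAMF6+ cells asked which helper cytokines separate the subsets. Mitochondrial genes took 12.9 to 17.6% of the counts in WT CXCR6+ libraries against 2.2 to 5.24% in WT SLAMF6+ libraries (7.45% and 8.56% in DKO CXCR6+ and DKO SLAMF6+). This share moves with each difference between the WT subsets given below, and its part in them was not tested. Il24 alone among the 8 genes passed the test and was lower in CXCR6+, against 17.7% of all 21565 tested genes called lower. Its groups did not overlap, as was the case for 27.8% of tested genes. IL-24 is an IL-10 family cytokine that signals through STAT3 in epithelial and other non-lymphoid cells. Il24 was at 170, 200, 241, 186 and 308 CPM in the CXCR6+ libraries and at 438, 437, 453, 531 and 594 CPM in the SLAMF6+ libraries. Every SLAMF6+ library exceeded every CXCR6+ library. The log2 difference was -1.15 (SE 0.163, edgeR adjusted p = 0.000264), or 2.22-fold lower in CXCR6+. It was -1.17 in a fit without mitochondrial, ribosomal protein, haemoglobin and receptor segment genes (adjusted p = 0.000234). After correction by GC and length offsets it was -0.29 (adjusted p = 0.166), in a setting that moved the median of all genes by 0.32. Relative to that shift Il24 stood at -0.61, a smaller difference than in the main fit. The call was also lost with those offsets and a replicate block.

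Il21 and Il23r were level between the subsets within narrow limits. Il21 was at 230, 238, 218, 236 and 181 CPM in CXCR6+ and at 229, 254, 205, 214 and 224 CPM in SLAMF6+, and the groups overlapped. The log2 difference was -0.03 with a 95% interval of -0.22 to 0.16. Il23r, the chain of the IL-23 receptor particular to that cytokine, was at 37.0, 35.3, 36.8, 34.5 and 36.8 CPM in CXCR6+ and at 41.5, 35.8, 32.3, 30.9 and 35.4 CPM in SLAMF6+. The CXCR6+ values all lie inside the SLAMF6+ range, and the log2 difference was 0.04 with an interval of -0.15 to 0.23. With a filter of at least 10 CPM in 5 libraries or with GC and length offsets, both genes passed the test as higher in CXCR6+, Il21 by 0.25 and 0.29 on the log2 scale. These settings raised the median of all genes by 0.28 and 0.32, and relative to that shift Il21 stood at -0.03 in both and Il23r at 0.04 and 0.16.

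Ifng and Csf2, the cytokines most closely tied to EAE, and Il2 did not separate the subsets beyond their spread in the main fit. Ifng was at 2.29, 27.7, 13, 3.49 and 0.335 CPM in CXCR6+ and at 15.4, 0.842, 4.80, 10.1 and 50.7 CPM in SLAMF6+. High and low libraries occurred in both subsets, and the log2 difference was -0.81 (adjusted p = 0.594) with an interval of -3.18 to 1.56. Csf2 was at 7.96, 4.83, 4.34, 0.996 and 0.446 CPM in CXCR6+ and at 3.64, 1.83, 1.66, 1.36 and 1.98 CPM in SLAMF6+. The CXCR6+ values span the whole SLAMF6+ range, and the log2 difference was 0.82 (interval -0.64 to 2.28, adjusted p = 0.362). Without WT SLAMF6+ replicate 5 the direction for Ifng turned, to 0.26. Il2, the T cell growth factor, was at 11.9, 71.4, 26.4, 46.0 and 45.9 CPM in CXCR6+ and at 45.7, 198, 9, 57.5 and 116 CPM in SLAMF6+. The lowest and the highest WT values of Il2 were both SLAMF6+ libraries, and the log2 difference was -1.07 (interval -2.58 to 0.43, adjusted p = 0.242). With a term for the mitochondrial gene mt-Ts1, Il2 passed the test as lower in CXCR6+. With a replicate block and GC and length offsets its direction turned, to 0.07.

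Il10 and Il22 were near the limit of detection in WT cells and passed the filter on low counts through a few libraries only. Il10 had 1, 2, 1, 0 and 0 counts in the CXCR6+ libraries and 0, 4, 0, 3 and 19 counts in the SLAMF6+ libraries. A single SLAMF6+ library therefore held most of the Il10 counts of the series, and the log2 difference of -2.43 had an adjusted p of 0.245. Il22 had 10, 0, 0, 21 and 0 counts in CXCR6+ and 0, 6, 2, 7 and 0 counts in SLAMF6+. Counts and zeros mixed in both subsets, and the log2 difference of 0.96 had an adjusted p of 0.638. Without WT CXCR6+ replicate 4 it was -0.16. Il22 has a near-identical copy, named Il22b in the table, whose transcript matches it at 97.4% of 1110 aligned bases. How reads shared by the copies were divided is not given in the sources used here, so the Il22 counts are uncertain.

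The spread between WT libraries divided the genes. The coefficient of variation was 3.14% for Il23r in CXCR6+, which is below the 5.54% that counting error alone would give, and 11.6% in SLAMF6+. For Il21 it was 10.6% and 8.24%, and for Il24 25.2% and 14.1%, all below the medians of tested genes of 32.6% in CXCR6+ and 25.8% in SLAMF6+. Ifng, Il2 and Csf2 lay above those medians, as did the scarcely detected Il10 and Il22. Ifng varied by 121% and 122%, Il2 by 55.9% and 86.6%, and Csf2 by 82.7% and 42.7%. Between the lowest and the highest library Ifng differed 82.6-fold in CXCR6+ and 60.2-fold in SLAMF6+, whereas Il21 differed 1.31-fold and 1.24-fold. Counting error alone would give Ifng coefficients of 10.9% and 7.75%, far below those measured.

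**Figure D2:**
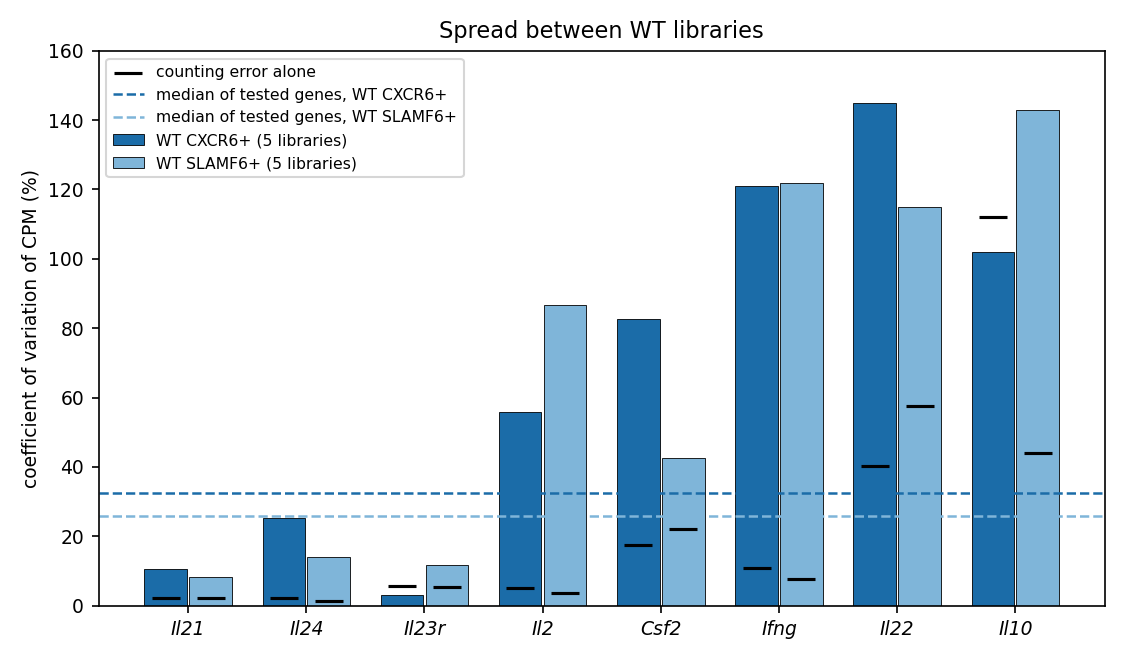
Coefficient of variation of CPM between the 5 WT libraries of each subset, in percent, for the 8 genes. Black ticks give the value expected from counting error alone and dashed lines the median of tested genes, 32.6% and 25.8%. Il21, Il24 and Il23r lie below the dashed lines and the other 5 genes above them.

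The comparison of DKO with WT cells asked how helper cytokine expression differed in the libraries labelled DKO. Those libraries also differ in receptor, sex genes and markers of other cells, as given above. Each DKO group is 1 library, so the fit assumes that it would vary as the WT libraries do. In CXCR6+ cells 4 of the 8 genes were called lower and none higher, against 15.9% of tested genes called lower. In SLAMF6+ cells 3 of 8 were called lower and none higher, against 17.5% of tested genes. Il21, Il24 and Il23r were called lower in both subsets, and Csf2 in CXCR6+. The DKO value lay outside the WT range for 5 genes in CXCR6+ and 6 in SLAMF6+, which is common with a single library, since 57.7% and 66.0% of tested genes did so. The median log2 difference over the 8 genes was -4.13 in CXCR6+ and -4.56 in SLAMF6+, against -0.22 and -0.05 over all tested genes. With genes at 0 in DKO set to their bound the medians were -3.7 and -3.28. Both comparisons rest on different WT libraries but share 1 fit.

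Il21 transcripts were nearly absent from the DKO libraries. IL-21 is made by TH17 and follicular helper cells and supports B cells and TH17 cells. Against the WT values of 181 to 254 CPM given above, the DKO CXCR6+ library held 0 Il21 counts and the DKO SLAMF6+ library 3 counts, or 0.434 CPM. Il21 was thus at least 636-fold lower in DKO CXCR6+ (edgeR adjusted p = 2.28e-08), with the bound set at 3 counts in the DKO library. In SLAMF6+ it was 518-fold lower (exact Poisson 95% interval 177 to 2510, adjusted p = 3.8e-08). Such intervals cover counting error only.

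Il24, the most abundant of the 8 genes in WT, had 0 counts in both DKO libraries. It was at least 637-fold lower in DKO CXCR6+ (adjusted p = 8.82e-07) and at least 1130-fold lower in DKO SLAMF6+ (adjusted p = 6.23e-07). No difference between the DKO libraries can be read for Il24.

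Il23r fell to 16 counts, or 1.85 CPM, in DKO CXCR6+ and to 1 count, or 0.145 CPM, in DKO SLAMF6+. Both lie far below the lowest WT library at 30.9 CPM. Il23r was 19.5-fold lower in CXCR6+ (exact Poisson interval 12 to 34.1, adjusted p = 2.91e-07) and 243-fold lower in SLAMF6+ (interval 43.6 to 9590, adjusted p = 7.81e-08). The difference between DKO and WT was smaller in CXCR6+ than in SLAMF6+, with an interaction of 3.52 on the log2 scale (SE 0.699, 95% interval 1.97 to 5.06, edgeR adjusted p = 0.0105). Of all tested genes 6.36% had a positive interaction that passed the test, and Il23r was the 1 gene of the 8 that did. The interaction rests on 1 count in DKO SLAMF6+ and lost its call with the DESeq2 Wald test, with limma-voom and with a random replicate block (adjusted p from 0.0105 to 0.17 over 27 alternatives).

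The promoters of Il21 and Il23r are shown because both genes went from even, well-measured WT levels to few or no counts in both DKO libraries. Each sequence is the 250 bases before the RefSeq start on the GRCm38.p6 assembly, on the strand of the gene, with motif matches in capitals. The motifs searched on both strands were GGAAA, the core bound by NFAT factors of activated T cells, AGGTCA, a core bound by nuclear receptors, TGANTCA for AP-1, TTCNNNGAA for STAT factors and GGTGTGA for T-box factors. No match of these motifs overlaps another in either promoter. The Il21 promoter lies at chr3:37232637-37232886 on the minus strand and the Il23r promoter at chr6:67491856-67492105 on the minus strand.
Il21: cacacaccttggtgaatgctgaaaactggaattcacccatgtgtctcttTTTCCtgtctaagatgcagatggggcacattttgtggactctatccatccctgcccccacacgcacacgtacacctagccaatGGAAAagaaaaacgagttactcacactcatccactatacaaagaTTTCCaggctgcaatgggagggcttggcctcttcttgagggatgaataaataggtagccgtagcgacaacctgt
Il23r: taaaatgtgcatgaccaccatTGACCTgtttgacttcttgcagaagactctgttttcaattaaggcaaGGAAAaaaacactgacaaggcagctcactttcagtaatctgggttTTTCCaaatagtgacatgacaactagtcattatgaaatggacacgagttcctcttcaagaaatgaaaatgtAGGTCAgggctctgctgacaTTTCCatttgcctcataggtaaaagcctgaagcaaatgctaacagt
Both sequences hold 3 matches to GGAAA, beginning 201, 118 and 74 bases before the start in Il21 and 182, 137 and 46 bases before it in Il23r. At least 1 such match occurs in 55.6% of 32851 mouse promoters of the same length, and at least 3 occur in 6.39%. Il23r also holds 2 matches to AGGTCA, beginning 229 and 66 bases before the start, as many as are found in 1.36% of promoters. At least 1 AGGTCA is found in 14.0%. Neither sequence holds a match to TGANTCA, TTCNNNGAA or GGTGTGA, which occur in 6.75%, 7.02% and 3.33% of promoters. A match is only a run of letters and says nothing of whether a factor is bound there. RefSeq promoters were matched for 6 of the 8 genes.

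Csf2 was at 0 counts in DKO CXCR6+ and at 2 counts, or 0.29 CPM, in DKO SLAMF6+. All 10 WT libraries were higher, although WT CXCR6+ replicates 4 and 5 held only 10 and 4 counts. Csf2 was at least 10.7-fold lower in DKO CXCR6+ (edgeR adjusted p = 0.023), a call that was lost with limma-voom, with a random replicate block and in a fit of the groups compared alone (adjusted p up to 0.387). In SLAMF6+ it was 7.23-fold lower (exact Poisson interval 2.0 to 59.7) and missed the threshold (edgeR adjusted p = 0.197). In a fit of the groups compared alone, however, Csf2 passed as lower in SLAMF6+. Its interaction of genotype and subset was not called.

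Il2 was below every WT library in both DKO libraries and did not pass the test in either. It had 22 counts, or 2.54 CPM, in DKO CXCR6+ and 43 counts, or 6.23 CPM, in DKO SLAMF6+, against WT values from 9 to 198 CPM. The log2 difference was -3.98 (SE 1.68, edgeR adjusted p = 0.108) in CXCR6+ and -3.77 (SE 1.6, adjusted p = 0.101) in SLAMF6+. Without WT SLAMF6+ replicate 3, which had the lowest WT level, Il2 passed as lower in both subsets, as it did with the DESeq2 Wald test and with a term for mt-Ts1, a mitochondrial gene at 0 counts in 5 of the 10 WT libraries.

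Ifng in the DKO libraries lay inside the WT range. It was at 4.05 CPM (35 counts) in DKO CXCR6+ and at 8.40 CPM (58 counts) in DKO SLAMF6+. The log2 difference was -1.21 (95% interval -5.78 to 3.37, edgeR adjusted p = 0.708) in CXCR6+ and -0.97 (interval -5.4 to 3.46, adjusted p = 0.759) in SLAMF6+. The intervals allow a large difference in either direction.

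Il22 was the 1 gene of the 8 whose DKO SLAMF6+ level lay above all WT libraries. It was at 2.08 CPM (18 counts) in DKO CXCR6+, just under the highest WT CXCR6+ library at 2.09 CPM, and at 8.25 CPM (57 counts) in DKO SLAMF6+, where WT reached 0.842 CPM. The log2 difference was 1.63 (SE 2.08, edgeR adjusted p = 0.597) in CXCR6+ and 4.57 (SE 1.91, adjusted p = 0.095) in SLAMF6+. The SLAMF6+ difference passed the test with limma-voom, with a random replicate block, with GC and length offsets and in a fit of the groups compared alone. Its copy Il22b was at 1.73 and 4.34 CPM in the DKO libraries and at a mean of at most 0.0389 CPM in WT. It passed the filter on low counts only through the DKO libraries, so no test of its rise is given. Innate lymphoid cells and γδ T cells are known sources of IL-22. The NK and innate lymphoid list, of which all 10 genes had counts in both DKO libraries, summed to 86.1 and 375 CPM there, against 5.24 to 17.3 CPM in WT CXCR6+ and 5.93 to 7.81 CPM in WT SLAMF6+. The γδ T cell list of 9 genes summed to 55.3 and 52.6 CPM against 4.34 to 9.92 CPM in WT, with Trdv4 at 0 in DKO CXCR6+ and Trgv6 at 0 in DKO SLAMF6+. Its members went both ways. Trgc2, a γ constant segment, was at 15 and 19.3 CPM in DKO, against a mean of at most 0.0562 CPM in WT. It passed the filter on low counts only through the DKO libraries, so no test of it is given. Trdc, the δ constant segment that defines these cells, went from 2.56 ± 0.695 and 4.06 ± 0.913 CPM to 0.462 and 0.579 CPM. Their part in the Il22 values was not tested.

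Il10 had 1 count in DKO CXCR6+ and 0 in DKO SLAMF6+, and no difference from WT was detectable at this depth. The regulatory T cell list of 6 genes summed to 216 and 170 CPM in the DKO libraries against 1470 to 1980 CPM in WT, a sum carried by Il2ra, Tnfrsf18 and Ctla4, which activated T cells also express. Foxp3, the defining marker, averaged 0.195 and 0.0676 CPM in WT CXCR6+ and WT SLAMF6+. It was at 0 in DKO CXCR6+ but at 5.36 CPM (37 counts) in DKO SLAMF6+, against the direction of the sum. Foxp3 passed the filter on low counts only through the DKO SLAMF6+ library, so no test of it is given. The part of such cells in the Il10 values was not tested. Between the DKO libraries, each a single library with no test, Il23r was higher in CXCR6+ and Ifng (35 against 58 counts), Il2 (22 against 43) and Il22 (18 against 57) were higher in SLAMF6+.

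**Figure D3:**
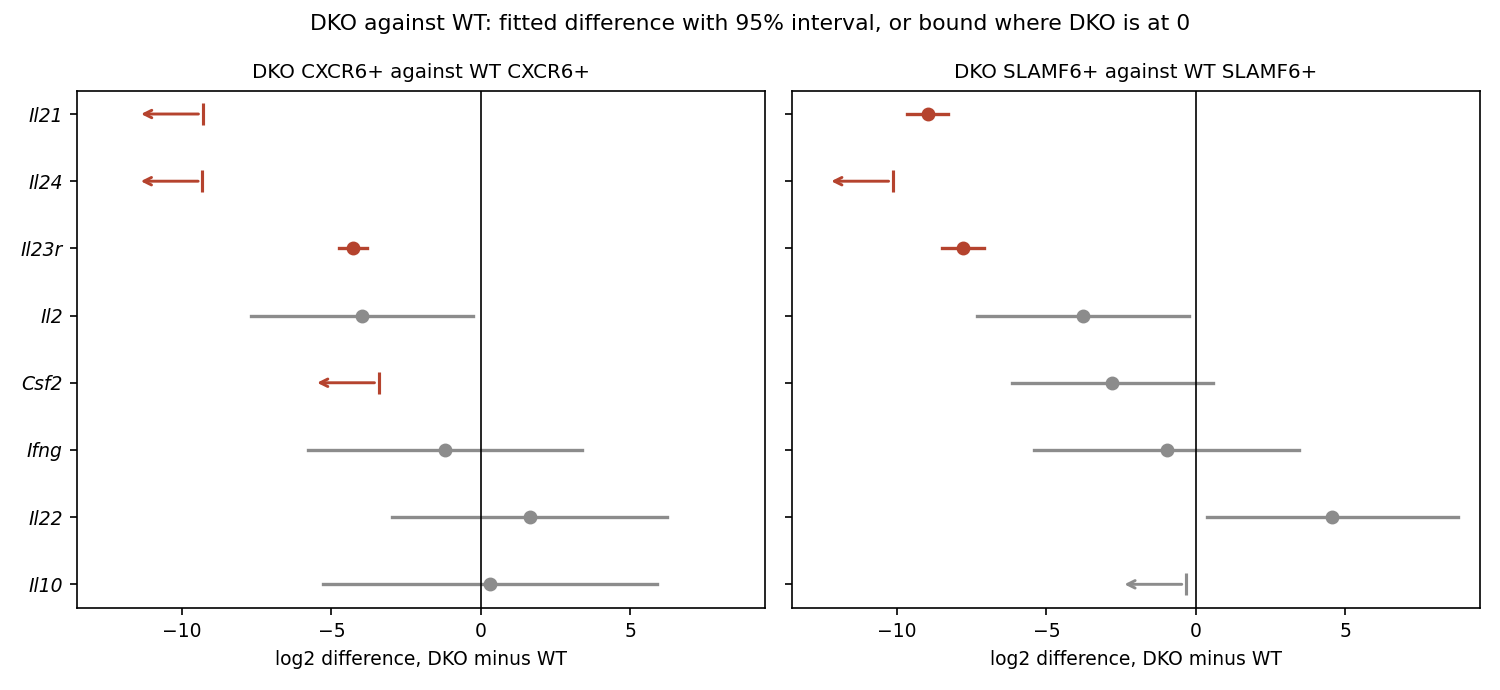
Fitted log2 difference of DKO minus WT with its 95% interval for the 8 genes in CXCR6+ (left) and SLAMF6+ (right). Arrows start at the bound set by 3 counts where the DKO library held no count, and red marks genes with an edgeR adjusted p under 0.05. Il21, Il24 and Il23r lie far to the left in both panels, and the intervals of Ifng cross 0 in both.

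Genes that act beside the 8 were counted from lists by role, drawn up with earlier results of these data known. Among 24 tested cytokines other than the 8, 2 rose and 4 fell in WT CXCR6+ against WT SLAMF6+, where 15.6% and 17.7% of all tested genes were called higher and lower. Ebi3, a shared subunit of IL-27 and IL-35, fell by 0.94 on the log2 scale (edgeR adjusted p = 2.2e-05), and Tgfb1, encoding TGF-β, rose by 1.31 (adjusted p = 0.00133). In the DKO libraries 12 of the 24 fell and 4 rose in CXCR6+, against 15.9% and 12.8% of all tested genes, and 11 fell and 5 rose in SLAMF6+, against 17.5% and 13.5%. The number that fell in CXCR6+ ran from 7 to 15 over 26 alternatives. Lif, encoding an IL-6 family cytokine, went from 168 ± 22.9 and 133 ± 21.2 CPM in WT to 0 and 2.90 CPM in DKO. Il13, a TH2 cytokine, went from 79.5 ± 17.3 and 43.9 ± 5.94 CPM to 0 in both. Il16, a chemoattractant for CD4+ cells, rose from 25.4 ± 2.79 and 42.7 ± 1.86 CPM to 122 and 151 CPM. Il17a and Il17f, the targeted genes, are among those counted as lower. Those counted as higher include Il22b and, in SLAMF6+, Il1b, which passed the filter on low counts only through DKO libraries. The difference for Tnf depended on the subset (interaction -3.06 on the log2 scale, adjusted p = 0.00623), with DKO levels of 16.6 CPM (CXCR6+) and 93.1 CPM (SLAMF6+) against 120 ± 34.1 and 79.9 ± 16.4 CPM in WT.

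Receptors of these cytokines moved in both directions. In WT CXCR6+ 3 of 14 tested receptor genes rose and 7 fell, against 15.6% and 17.7% of all tested genes, and the number that fell ran from 3 to 7 over 28 alternatives. Il2rb, the IL-2 receptor beta chain, was at 191 ± 5.47 CPM in CXCR6+ against 358 ± 19.7 CPM in SLAMF6+ (adjusted p = 7.72e-07). Ifngr2, a chain of the IFN-γ receptor, was at 20.7 ± 3.85 against 39.5 ± 2.6 CPM (adjusted p = 0.000149). In DKO 6 of 14 fell in each subset, with 3 higher in CXCR6+ and 2 in SLAMF6+, where all tested genes gave 15.9% lower and 12.8% higher in CXCR6+ and 17.5% lower and 13.5% higher in SLAMF6+. Il2ra, the high-affinity IL-2 receptor chain, went from 952 ± 71 to 23.0 CPM in CXCR6+ and from 807 ± 25.5 to 14.6 CPM in SLAMF6+ (adjusted p = 1.11e-08 and 1.8e-08). Il12rb2, the IL-12 receptor chain used by TH1 cells and the neighbour of Il23r on chromosome 6, went from 174 ± 14.9 to 15 CPM and from 330 ± 22 to 13.8 CPM (adjusted p = 1.84e-07 and 6.56e-08). Il21r, the IL-21 receptor, fell from 203 ± 23.2 to 57.6 CPM in CXCR6+ and from 258 ± 25.3 to 74.9 CPM in SLAMF6+ (adjusted p = 3.26e-05 and 3.8e-05). Ifngr1, the other IFN-γ receptor chain, rose from 42.7 ± 9.56 to 338 CPM and from 69.5 ± 1.77 to 216 CPM (adjusted p = 1.41e-06 and 0.000149), with an interaction of 1.34 (adjusted p = 0.0275).

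The kinases and STAT factors downstream showed a like mixture. Of 9 JAK and STAT genes, 4 were lower and 1 was higher in WT CXCR6+, against 17.7% and 15.6% of all tested genes. The split depended on the setting, with 1 to 6 lower and 1 to 4 higher over 28 alternatives. The higher gene was Jak2, a kinase of the IFN-γ and IL-23 receptors, at 47.3 ± 3.25 against 24.4 ± 1.97 CPM (edgeR adjusted p = 7.01e-06). In DKO 5 were lower and 3 higher in CXCR6+, and 6 were lower and 2 higher in SLAMF6+, against shares of 15.9% and 12.8% over all tested genes in CXCR6+ and of 17.5% and 13.5% in SLAMF6+. Stat5a, which carries IL-2 signals, went from 193 ± 10.7 to 25.7 CPM and from 201 ± 7.22 to 28.5 CPM (adjusted p = 7.48e-08 and 8.75e-08). Jak1 rose in both DKO libraries, by 1.79 and 1.26 on the log2 scale (adjusted p = 1.62e-06 and 2.42e-05).

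Target genes were counted for the STAT5 and IFN-γ pathways. Of 10 STAT5 targets, 3 rose and 3 fell between the WT subsets, against 15.6% and 17.7% of all tested genes, with a median log2 difference of 0.01 against 0.13 over all tested genes. In DKO 8 fell and 1 rose in CXCR6+, against 15.9% and 12.8% of all tested genes, and 9 fell and none rose in SLAMF6+, against 17.5% and 13.5%. The medians were -1.26 and -1.57 against -0.22 and -0.05 over all tested genes. Cish, a feedback inhibitor induced by STAT5, went from 283 ± 8.89 to 117 CPM and from 313 ± 9.67 to 98.5 CPM (adjusted p = 1.78e-06 and 4.33e-07). Socs2, another inhibitor of this kind, went from 129 ± 13.5 to 72.1 CPM and from 216 ± 9.15 to 60.1 CPM (adjusted p = 0.000727 and 5.45e-06), with an interaction of 1.00 (adjusted p = 0.00712). Of 16 IFN-γ targets, 10 fell and 1 rose in WT CXCR6+ against SLAMF6+, where 17.7% of all tested genes were lower and 15.6% higher. Their median log2 difference was -0.79 against 0.13 over all tested genes, and the number that fell ran from 6 to 12 over 28 alternatives. Ifng itself did not pass the test. Psmb8, an immunoproteasome subunit, was at 614 ± 45.4 against 1210 ± 99.8 CPM (adjusted p = 3.41e-06), and Gbp2, a guanylate-binding protein of cell-autonomous defence, at 72.5 ± 15.1 against 215 ± 23.2 CPM (adjusted p = 1.36e-05). In DKO 7 of the 16 rose and 3 fell in CXCR6+, against 12.8% and 15.9% of all tested genes. In SLAMF6+ 3 rose and 4 fell, against 13.5% and 17.5%. Irf1, a transcription factor induced by IFN-γ, rose from 51.6 ± 3.51 to 127 CPM and from 73.5 ± 4.41 to 138 CPM (adjusted p = 5.01e-06 and 8.19e-05). Some genes, such as Socs1, stand in more than 1 of these lists.

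**Figure D4:**
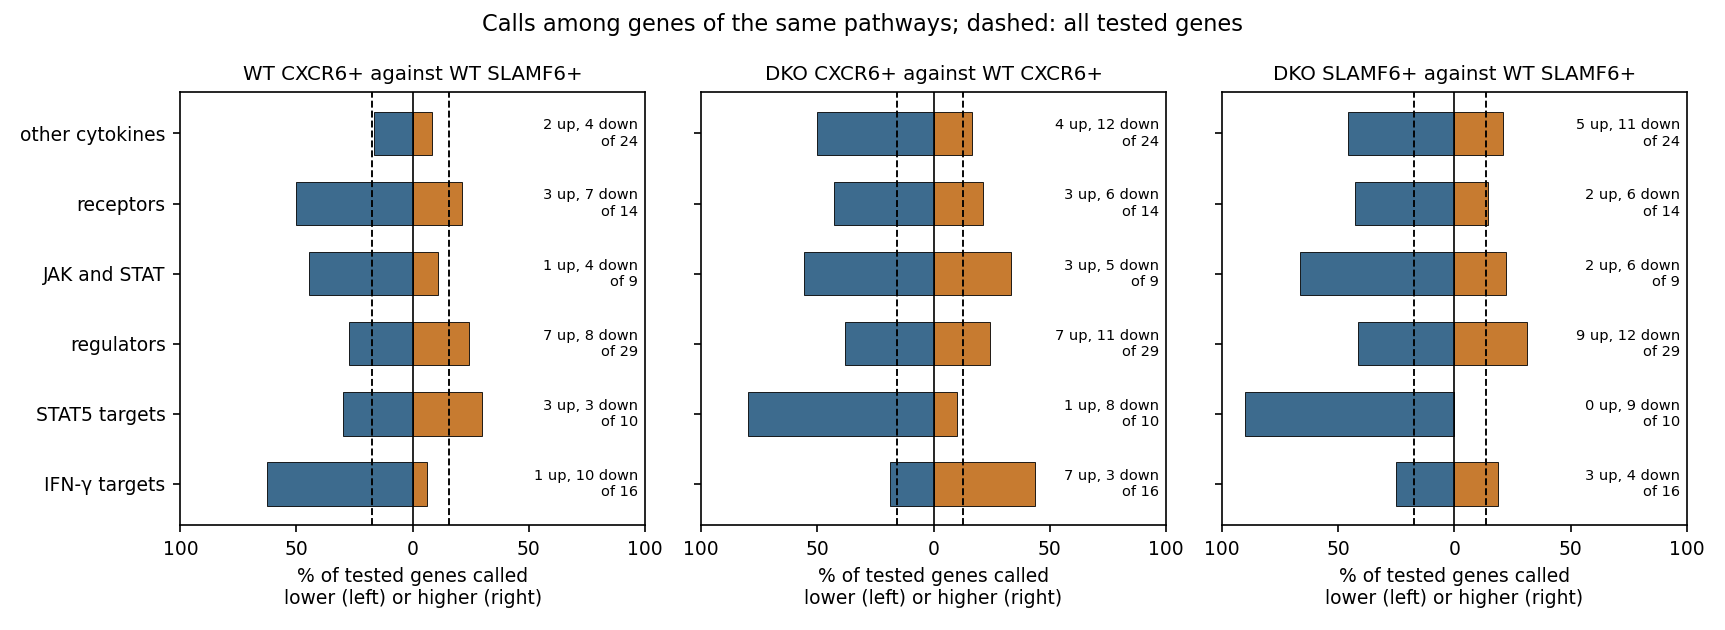
Share of tested genes of 6 lists called lower (left, blue) or higher (right, orange) in each comparison, in percent, with the counts printed beside the bars. Dashed lines give the shares over all tested genes, from 12.8 to 15.6% higher and from 15.9 to 17.7% lower. The STAT5 targets lie mostly to the left in both DKO comparisons, and the IFN-γ targets to the left between the WT subsets.

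Of 29 tested transcriptional regulators of helper cytokines, 7 rose and 8 fell in WT CXCR6+ against SLAMF6+, where 15.6% and 17.7% of all tested genes did. The number that fell ran from 3 to 9 over 28 alternatives. In DKO 7 rose and 11 fell in CXCR6+, against 12.8% and 15.9% of all tested genes, and 9 rose and 12 fell in SLAMF6+, against 13.5% and 17.5%. Irf4, which with BATF drives Il21 and the TH17 program, went from 213 ± 13 to 5.20 CPM and from 243 ± 20.6 to 2.17 CPM (edgeR adjusted p = 3.24e-08 and 3.4e-08). Hif1a, a hypoxia factor that promotes TH17 cells, went from 328 ± 23.2 to 38.8 CPM and from 474 ± 18.7 to 54.2 CPM (adjusted p = 9.67e-08 and 8.77e-08). Bhlhe40, a factor required for GM-CSF production in EAE, went from 429 ± 33.6 to 142 CPM and from 554 ± 14.3 to 84.0 CPM (adjusted p = 2.93e-06 and 2.12e-07), and its interaction with subset was 1.13 (adjusted p = 0.00214). Id2, an inhibitor of E proteins, rose from 190 ± 19.9 to 1200 CPM and from 231 ± 24.3 to 807 CPM (adjusted p = 2.76e-07 and 4.41e-06), with an interaction of 0.86 (adjusted p = 0.0341). Tbx21, encoding the TH1 factor T-bet and named after its values were seen, rose in CXCR6+ from 23.2 ± 5.71 to 63.2 CPM (adjusted p = 0.00212). In SLAMF6+ it was at 31.4 CPM against 18.6 ± 3.31 CPM (adjusted p = 0.0717). The difference between the subsets was not called (interaction adjusted p = 0.379).

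Across the 12 libraries the genes whose pattern lay nearest to each of the 8 were sought among 9036 genes with a mean of at least 5 CPM, as the root mean square difference of centred log2 CPM. Il17a was the nearest to Il21, at 0.403, followed by Timp1, an inhibitor of metalloproteinases, at 0.443. Mt2, a metallothionein, was the nearest to Il24, at 0.368, and Tnfrsf8, encoding CD30, was next at 0.618. Crispld2 and Hrob were the nearest to Il23r, at 0.222 and 0.251. These likenesses mostly express the step between 10 WT and 2 DKO libraries. Apold1 and Chit1 were the nearest to Csf2, at 0.742 and 0.767. For Ifng even the nearest gene, a ribosomal protein pseudogene, differed by 1.48, close to the 1.8 by which Ifng itself varied about its mean.

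The 8 genes include 3 pairs of neighbours. Il10 and Il24 lie 132 kb apart on chromosome 1 (GRCm38, Il10 at 131019845 to 131024974 on the plus strand and Il24 at 130882074 to 130887454 on the minus strand). Il24 was abundant in WT and Il10 near 0 in the same libraries. Fcmr, a receptor for IgM that lies 1.28 kb from Il24, showed the same order of groups, with 13.7 CPM in WT CXCR6+, 35.1 CPM in WT SLAMF6+ and 0 in both DKO libraries. Neighbours as a whole moved both ways. Of 12 tested coding genes within 500 kb of Il24, 3 were higher and 3 lower in WT CXCR6+ against WT SLAMF6+. The shares over all tested genes were 15.6% and 17.7%. In DKO CXCR6+ 2 were higher and 3 lower, against 12.8% and 15.9%. In DKO SLAMF6+ 4 were higher and 3 lower, against 13.5% and 17.5%. Il2 at 37120523 to 37125959 and Il21 at 37222759 to 37232636 lie 96.8 kb apart on the minus strand of chromosome 3. Il21 was even across WT libraries where Il2 varied up to 22.0-fold. In a list of 9 tested genes of this locus, Il2 and Il21 included, 2 were called lower and 1 higher in DKO CXCR6+, against 15.9% and 12.8% of all tested genes. In DKO SLAMF6+ 3 were lower and 1 was higher, against 17.5% and 13.5%. Over 26 alternatives the number lower ran from 1 to 3 and from 1 to 4. Il21 and Cetn4, encoding a centrin, were lower in both, and Bltp1, encoding a lipid transfer protein, was higher in both, by 0.82 and 1.81 on the log2 scale (edgeR adjusted p = 0.0465 and 0.000364). Il2 overlaps Adad1 in the annotation, and the library kit does not mark strand, so reads of the overlap cannot be assigned to either. Adad1 averaged at most 0.571 CPM in any group. Il22 at 118204942 to 118210047 and Ifng at 118441046 to 118445892 lie 231 kb apart on the plus strand of chromosome 10. Il3, a cytokine gene 15.6 kb from Csf2 on chromosome 11, had 0 counts in both DKO libraries against 60.8 ± 104 and 49.5 ± 65.4 CPM in WT, and its spread left it short of the threshold (adjusted p = 0.153 and 0.166).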

How the data were processed

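The authors deposited 1 table of expected counts per gene for the 12 libraries. The submitters' processing notes name STAR (2.7.7a), RSEM (1.3.3) and the build mm10. How multi-mapping reads were treated, and with which annotation, is not given in the sources used here. All expected counts were deposited as whole numbers and entered the fits unchanged. Genes were kept by filterByExpr (21565 of 47359), scaled by TMM and tested in edgeR 4.0.16 (R 4.3.3) by the quasi-likelihood F-test in 1 fit of the 4 groups. Benjamini-Hochberg adjustment ran over all tested genes with a threshold of 0.05. CPM uses TMM-scaled library sizes, and standard errors were derived from the p-values. Alternatives were DESeq2 1.42.0, limma-voom (limma 3.58.1), other filters, scalings, covariates and libraries left out. The fits were tested on simulated data. Lengths and positions come from GENCODE M21 (GRCm38), which matched 87.4% of gene names, and promoters from RefSeq (GRCm38.p6). The 8 genes and all lists were chosen with earlier results of these data known. The text names all 8, up to 3 called genes per list and comparison with the smallest p, and the 2 nearest genes by pattern for the genes described, plus neighbours as examples; some genes that this rule names are not reported here. Results of a check of Trbv, sex genes or cell type markers are given as values only.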

Additional observations from a re-analysis of the deposited data

Results flagged for a closer look

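Csf2 in WT SLAMF6+ replicate 1 stood apart from the other 4 libraries of its group, at 3.64 CPM against 1.36 to 1.98 CPM, with a gap of 0.729 of the whole range where 0.71 is the 95% critical value of Dixon's test for 5 samples. Of 16 groups of WT libraries tested for the 8 genes this was the only 1 past that value, and chance marks about 5 in 100. The difference of Il23r between DKO and WT depended on the subset, with an interaction of 3.52 on the log2 scale, where DKO CXCR6+ held 16 counts and DKO SLAMF6+ 1 count.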

How the results depend on the processing

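Counts of called genes stayed within 1.5 times the main count in 106 alternatives and left it in 1, the interaction with a replicate block and GC and length offsets, which called 982 genes against 2221. The replicate block alone called 1554 genes for the interaction and 6943 against 7179 between the WT subsets. Deviations of same-numbered WT libraries from their subset means correlated at -0.027 to 0.057 over 10070 genes. These values show no shared deviation, but cannot decide whether a number marks a shared animal, which the labels do not say. A fixed block could not be fitted for DKO against WT, where the number 0 is found only in DKO. Leaving out libraries gave 5826 to 6949 calls between WT subsets, 5614 to 6203 for DKO CXCR6+, 5954 to 6885 for DKO SLAMF6+ and 1687 to 2347 for the interaction. The split of higher and lower calls moved from 3363 and 3816 to 4354 and 2020 between WT subsets with GC and length offsets. It moved from 2767 and 3432 to 4125 and 2433 (DKO CXCR6+) and from 2913 and 3784 to 4504 and 2772 (DKO SLAMF6+) with limma-voom, and to 4283 and 2812 in DKO SLAMF6+ with GC and length offsets. For the interaction it moved from 1372 and 849 to 581 and 1004 with those offsets and to 1025 and 1232 with the 10 CPM filter.

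Il21, Il24 and Il23r kept their calls in DKO against WT under the 26 alternatives run for each subset. Of all values of the 8 genes under alternatives, 751 kept their direction and side of the threshold. With the direction kept, 18 passed it newly and 8 no longer passed. A direction turned in 29, which include the Il21 values past the threshold given below. Between WT subsets Ifng became 0.2 with GC and length offsets, 0.02 with a term for mt-Ts1, 0.04 with replicate block and offsets, and ran from -2.08 to 0.57 on leaving out libraries. Il2 became 0.07 with replicate block and offsets. Il21 became 0.02 with DESeq2 size factors and with its Wald test and 0.1 with only the groups compared, and ran from -0.07 to 0.03 on leaving out libraries. It became 0.25 with the 10 CPM filter and 0.29 with GC and length offsets with or without replicate block, all past the threshold (adjusted p = 0.0275, 0.0186 and 0.0145). On leaving out libraries Il22 ran from -0.16 to 1.86 and Il23r from -0.01 to 0.1. In DKO CXCR6+ Il10 became -2.36 with libraries thinned to the smallest total, and in DKO SLAMF6+ Ifng ran from -1.27 to 0.1 on leaving out libraries. The interaction of Ifng became 0.1 with limma-voom and with a random replicate block, and ran from -1.62 to 1.03 on leaving out libraries. That of Il2 became 0.86 with a term for mt-Ts1 and ran from -0.79 to 0.09. The cause was not tested. Depth limits Il10, Il22 and Csf2 most, with few counts per library.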

Other observations

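Genes known from pathogenic TH17 cells, a list of 20 that includes Csf2, Il23r and Il22 and was drawn up with results of these data known, split in direction. Of 19 tested, none rose and 6 fell in WT CXCR6+ against WT SLAMF6+, where 15.6% and 17.7% of all tested genes did. The split depended on the setting, with 0 to 6 higher and 0 to 7 lower over 28 alternatives. Among those that fell was Icos, a costimulatory receptor, by 0.68 on the log2 scale (edgeR adjusted p = 0.00018). In DKO 5 rose and 9 fell in CXCR6+, against 12.8% and 15.9% of all tested genes, and 4 rose and 8 fell in SLAMF6+, against 13.5% and 17.5%. Lag3, an inhibitory receptor, went from 213 ± 57.6 CPM (SD, n = 5) to 0.462 CPM in CXCR6+ and from 188 ± 24 to 9.99 CPM in SLAMF6+ (edgeR adjusted p = 2.2e-06 and 3.17e-05). Casp1, an inflammatory protease, rose from 19.7 ± 3.49 to 121 CPM and from 17.3 ± 2.55 to 109 CPM (adjusted p = 3.91e-06 and 4.2e-06). Of 8 genes known from non-pathogenic TH17 cells, Maf, a factor that promotes Il10, was the 1 called in DKO, higher in both subsets where 12.8% and 13.5% of all tested genes were (adjusted p = 0.0243 and 0.0113), while Il10 had 1 and 0 counts there.

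STAT3 is the factor downstream of IL-21 and IL-23. Of 10 STAT3 targets none rose and 2 fell between the WT subsets, the latter a share near the 17.7% of all tested genes. In DKO CXCR6+ 1 rose, near the 12.8% of all tested genes, and 5 fell, against 15.9%. In DKO SLAMF6+ 2 rose and 3 fell, against 13.5% and 17.5%. Socs3, the STAT3 feedback inhibitor, went from 71.5 ± 14.3 to 16.4 CPM in CXCR6+ and from 82.2 ± 9.04 to 29.1 CPM in SLAMF6+ (edgeR adjusted p = 0.00017 and 0.00128). Il6ra, the IL-6 receptor chain, stood in DKO at 0.809 CPM (CXCR6+) and 16.7 CPM (SLAMF6+), against 6.96 ± 0.562 and 5.55 ± 0.786 CPM in WT, with an interaction of -4.67 on the log2 scale (adjusted p = 0.000718).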
